A study of Homo sapiens with 6 samples.

Results

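The genes described here are 10 transcripts that are widely read as the output of RAS-ERK signalling: the phosphatase genes DUSP4, DUSP5 and DUSP6, the Sprouty genes SPRY1, SPRY2 and SPRY4, their relatives SPRED1 and SPRED2, and the ETS transcription factor genes ETV4 and ETV5. They were chosen by gene symbol from the 26490 symbols of a deposited count table, and all 10 were found there. The table holds RNA-seq counts from SW403, an established human colon adenocarcinoma line. Of its 6 libraries, 3 are labelled control (genotype WT, marked NS) and 3 are labelled IRS2 knockdown (marked KO), and all cells grew for 24 h in DMEM with 10% fetal bovine serum and no added treatment. IRS2 encodes an adaptor that carries signals from the insulin and IGF1 receptors to the PI3K and RAS-ERK pathways, so the members ask whether the transcripts downstream of ERK differed when IRS2 was lowered. The titles call the 3 libraries of each group biological replicates. The labels state neither the agent that lowered IRS2 nor whether the 3 cultures of a group are separate lines. P-values therefore measure the spread between these samples, and whether that spread covers separate knockdowns is not known.

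ERK is the last kinase of the RAS, RAF, MEK and ERK chain. Active ERK raises transcription of genes whose products hold the pathway back: dual-specificity phosphatases remove phosphate from ERK itself, while Sprouty and SPRED proteins act further up, around the receptor adaptors, RAS and RAF. ETV4 and ETV5 are ETS-family activators whose transcripts also rise with ERK activity, partly through release of the repressor CIC. In tumours with mutant RAS or RAF, transcripts of these families are often used as a measure of pathway output.

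The control libraries held 11816973 to 12585013 counts and the knockdown libraries 14329348 to 18114656, so every knockdown library was the deeper. IRS2 itself was at 32.4, 34.8 and 32.2 CPM (counts scaled to a common library total) in control and 13.0, 12.3 and 11.9 CPM in knockdown (log2 fold change -1.39 ± 0.07 SE, edgeR adjusted p = 3.12e-11). Of 10 colon epithelial markers, KRT20, CDX1 and CEACAM5 were listed at 0 in every library and CDH1 had 0 to 5 counts, while EPCAM, KRT8, KRT18, KRT19, VIL1 and CDX2 were present. The summed level of these 10 was 2536 to 2637 CPM in control and 2364 to 2456 CPM in knockdown, most of it KRT8 and KRT18, neither of which passed the test. KRT19 (221 to 243 CPM in control, 153 to 168 CPM in knockdown) and EPCAM fell and CDX2 rose, and their part in the members' results was not tested. Leukocyte markers summed to at most 1.23 CPM and endothelial markers to at most 0.876 CPM. The 6 fibroblast markers summed to 8.97 to 27.6 CPM in control and 5.80 to 7.29 CPM in knockdown; control replicate 1 was the highest, with 193 counts of COL1A1 and 86 of COL1A2. Of the 3 fibroblast markers tested, COL1A1 (log2 fold change -1.15, edgeR adjusted p = 0.00290) and COL3A1 (-1.71, 0.0136) fell and PDGFRB did not pass. Without control replicate 1, 5 of the 6 rises described next still passed the test, the exception being ETV5. Leaving out that library did not remove the fibroblast marker difference, since every control sum lay above every knockdown sum. The part of that difference in the members' results was not tested.

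All 10 members were expressed well enough to be tested. In the knockdown libraries 6 rose (DUSP5, DUSP4, SPRY4, DUSP6, SPRED2 and ETV5) and 0 fell by the quasi-likelihood F-test of edgeR (adjusted p under 0.05), while SPRY1, SPRY2, SPRED1 and ETV4 did not pass. Among all 13832 tested genes, 38.5% passed in either direction, 19.3% were higher and 19.2% were lower. The median log2 fold change of the 10 members was 0.13, against -0.00 over all tested genes. Differences were large only for DUSP5 and DUSP4, which rose at least 1.5-fold, as 2.04% of tested genes did. For the other 4 the rise was 1.08- to 1.16-fold. In CPM, the 3 knockdown values all lay above the 3 control values for 6 members, as for 19.6% of tested genes, and below them for 2, SPRY2 and ETV4; 48.4% of tested genes showed no overlap in either direction.

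**Figure D1:**
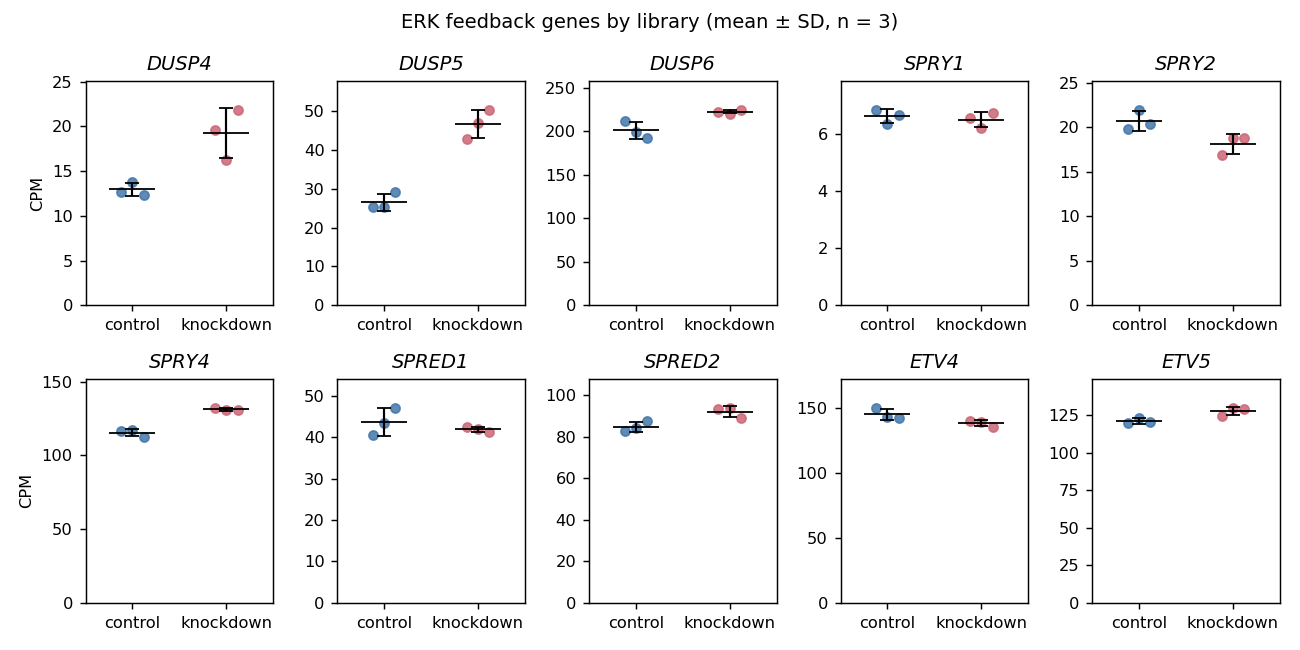
Level of each of the 10 genes in CPM (vertical axes from 0, each panel with its own scale) in the 3 control and 3 knockdown libraries; points are libraries, the bar and whiskers the mean ± SD. DUSP5 moved from 26.5 to 46.8 CPM on average and DUSP4 from 12.9 to 19.2 CPM, while the other panels show group means much closer together.

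The DUSP genes encode the phosphatases that switch off MAP kinases. DUSP5 is a nuclear phosphatase specific for ERK and is itself induced by ERK. It lies on chromosome 10 (GRCh37, 112257665 to 112271291, plus strand). DUSP5 was at 25.3, 25.2 and 29.1 CPM in the control libraries and at 43.0, 47.0 and 50.3 CPM in the knockdown libraries. Every knockdown library was far above the highest control library. Its rise was 1.81-fold (95% interval 1.63 to 2.001; log2 fold change 0.85 ± 0.07 SE, edgeR adjusted p = 1.57e-08), and 94.0% of tested genes had a smaller or equal absolute change. The annotation used here also lists the pseudogenes DUSP5P1 and DUSP5P2, for which the deposited counts have no entry under those symbols. How reads shared between copies were counted is not given in the sources used here.

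DUSP4, a nuclear phosphatase that acts on ERK and also on JNK and p38, lies on chromosome 8 (GRCh37, 29190581 to 29208201, minus strand). It was at 12.7, 13.8 and 12.4 CPM in control and at 19.6, 16.3 and 21.8 CPM in knockdown. The groups did not overlap, although the knockdown libraries spread more widely (SD 2.78 against 0.737 CPM, n = 3 each). The rise was 1.52-fold (95% interval 1.31 to 1.76; log2 fold change 0.60 ± 0.10 SE, edgeR adjusted p = 0.000124).

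DUSP6 encodes a cytoplasmic phosphatase that binds ERK tightly and is widely used as a readout of the pathway. It is on chromosome 12 (GRCh37, 89741012 to 89746278, minus strand). The control libraries were at 212, 199 and 193 CPM and the knockdown libraries at 223, 221 and 224 CPM. Control replicate 1 came close to the knockdown values, and no value crossed. DUSP6 rose 1.13-fold (95% interval 1.07 to 1.19; log2 fold change 0.17 ± 0.04 SE, edgeR adjusted p = 0.000836). A long non-coding RNA gene on the opposite strand shares 873 exonic bases with DUSP6 in the annotation, and reads of the 2 cannot be told apart if strand was not used in counting.

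Sprouty proteins are membrane-associated inhibitors that blunt receptor signalling to RAS and RAF. SPRY4, on chromosome 5 (GRCh37, 141689992 to 141706020, minus strand), was at 116, 117 and 113 CPM in control and at 132, 131 and 131 CPM in knockdown. The groups were well separated and the replicates tight. SPRY4 rose 1.16-fold (95% interval 1.10 to 1.22; log2 fold change 0.21 ± 0.04 SE, edgeR adjusted p = 0.000112). Its antisense gene SPRY4-AS1, which shares 0 exonic bases with the main SPRY4 transcript, had 11, 22 and 14 counts in control and 35, 45 and 51 in knockdown, which is 0.874, 1.75 and 1.18 CPM against 2.44, 2.64 and 2.82 CPM.

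SPRY2 (chromosome 13, GRCh37, 80910111 to 80915261, minus strand) lay on the other side of 0. Its values were 19.8, 21.9 and 20.3 CPM in control and 16.8, 18.8 and 18.8 CPM in knockdown, all lower than control. The change was 0.899-fold (95% interval 0.804 to 1.01), which did not pass the test (log2 fold change -0.15 ± 0.08 SE, edgeR adjusted p = 0.126). With counts thinned to the depth of the smallest library SPRY2 did pass (log2 fold change -0.21, edgeR adjusted p = 0.0472). SPRY1 (chromosome 4, GRCh37, 124317950 to 124324915, plus strand) was the least abundant of the 3 Sprouty members, at 6.83, 6.37 and 6.69 CPM in control and 6.56, 6.21 and 6.73 CPM in knockdown. These values overlapped, and with 79 to 122 counts per library the interval of the fold change ran from 0.835 to 1.203 (edgeR adjusted p = 0.990).

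SPRED proteins carry a Sprouty domain and recruit the RAS inactivator neurofibromin to the membrane. SPRED2 (chromosome 2, GRCh37, 65537985 to 65659771, minus strand) was at 82.6, 84.5 and 87.4 CPM in control and 93.3, 93.9 and 88.9 CPM in knockdown. The highest control and lowest knockdown libraries were close, without overlap. SPRED2 rose 1.11-fold (95% interval 1.04 to 1.18; log2 fold change 0.15 ± 0.04 SE, edgeR adjusted p = 0.00825), a call that was lost with counts thinned to the smallest library (log2 fold change 0.11, edgeR adjusted p = 0.0813). SPRED1 (chromosome 15, GRCh37, 38545037 to 38649450, plus strand) was at 40.4, 43.5 and 47.1 CPM in control and 42.4, 42.0 and 41.2 CPM in knockdown. Its groups overlapped, the 95% interval of its fold change was 0.903 to 1.06, and it did not pass (edgeR adjusted p = 0.724).

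ETV4 and ETV5 are the activators among the members, and both were abundant. ETV5 (chromosome 3, GRCh37, 185764103 to 185828107, minus strand) was at 119.7, 124 and 120.4 CPM in control and 125, 129.97 and 129 CPM in knockdown. The groups were adjacent without overlap. ETV5 rose 1.08-fold (95% interval 1.02 to 1.14; log2 fold change 0.11 ± 0.04 SE, edgeR adjusted p = 0.0262). That call was lost without control replicate 1 (edgeR adjusted p = 0.0818), control replicate 3 (0.0610), knockdown replicate 2 (0.104) or knockdown replicate 3 (0.0562), and also with upper-quartile scaling (0.0692), library size alone (0.0965) and DESeq2's Wald test (0.0761). DGKG, a neighbour on the same strand, shares 164 exonic bases with ETV5 in the annotation and was at 18.8, 18.7 and 19.8 CPM in control and 22.1, 21.9 and 17.8 CPM in knockdown, with overlap between groups. ETV4 (chromosome 17, GRCh37, 41605212 to 41656988, minus strand) was at 149.7, 143 and 142 CPM in control and 139.9, 139 and 135 CPM in knockdown. Every knockdown library was lower, but the change of 0.972-fold (95% interval 0.923 to 1.02) did not pass (log2 fold change -0.04 ± 0.04 SE, edgeR adjusted p = 0.407). The gene DHX8 on the opposite strand shares 54 exonic bases with ETV4 and was at 69.8, 68.1 and 71.8 CPM in control and 75.6, 73.2 and 71.8 CPM in knockdown, where the closest libraries nearly met.

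**Figure D2:**
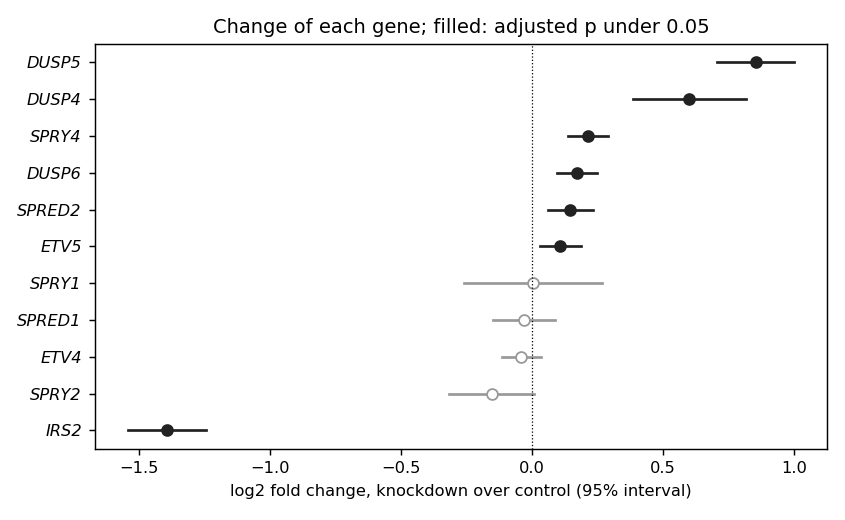
Log2 fold change of knockdown over control (horizontal axis) for the 10 genes and IRS2, with 95% intervals from edgeR's quasi-likelihood fit; filled points passed an adjusted p of 0.05. DUSP5 (0.85) and DUSP4 (0.60) stand to the right, SPRY4, DUSP6, SPRED2 and ETV5 sit between 0.11 and 0.21, and IRS2 is at -1.39.

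Relative to transcript length, the members covered a wide range of levels. Dividing the control CPM of each gene by the length of its canonical transcript gave 62.0 ± 1.83 CPM per kilobase for ETV4 (SD, n = 3), the highest, and 2.33 ± 0.133 for DUSP4, the lowest. The order of control levels was ETV4, DUSP6, ETV5, SPRY4, SPRED2, DUSP5, SPRY2, SPRED1, SPRY1 and DUSP4. Only the last pair of neighbours, SPRY1 at 2.55 ± 0.0912 and DUSP4, overlapped between control libraries. In knockdown DUSP6, at 61.4 ± 0.517 CPM per kilobase (SD, n = 3), stood above ETV4 at 59.1 ± 1.02, and DUSP4 at 3.46 ± 0.5001 stood above SPRY1 at 2.50 ± 0.102, while the other 6 kept their place. The summed CPM of all 10 members was 786, 778 and 771 in control and 841, 844 and 847 in knockdown, with no overlap between groups. DUSP5 and DUSP4, with the largest fold changes, were small parts of that summed level. DUSP5 averaged 26.5 CPM in control and 46.8 CPM in knockdown, and DUSP4 averaged 12.9 and 19.2 CPM. Their part in the rise of the sum was larger. The rise of DUSP5 in CPM was close to that of DUSP6, which averaged 201 CPM in control and 223 CPM in knockdown.

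Because members of one family can stand in for one another, their counts were also compared as ratios within each library, which do not depend on scaling between libraries. For the 8 pairs within families, 3 libraries against 3 allow no exact two-sided permutation p below 0.1. The 6 pairs without overlap between groups reached that limit, and their permutation p was 0.133 after adjustment over the 8 pairs. The DUSP5 to DUSP6 ratio was 0.119, 0.127 and 0.151 in control and 0.193, 0.213 and 0.224 in knockdown, a 1.59-fold difference. The DUSP4 to DUSP6 ratio was 1.34-fold higher in knockdown. The SPRY2 to SPRY4 ratio ran the other way: it was 0.170, 0.187 and 0.180 in control and 0.127, 0.144 and 0.144 in knockdown, 0.772 times the control level. Lower in knockdown as well were the ratios SPRY1 to SPRY4 (0.863-fold), SPRED1 to SPRED2 (0.886-fold) and ETV4 to ETV5 (0.903-fold). The share of other gene pairs without overlap was not computed, and no pair passed a threshold of 0.05. The ratios DUSP4 to DUSP5 (exact permutation p = 0.3, two-sided) and SPRY1 to SPRY2 (exact permutation p = 0.2, two-sided) overlapped between groups.

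**Figure D3:**
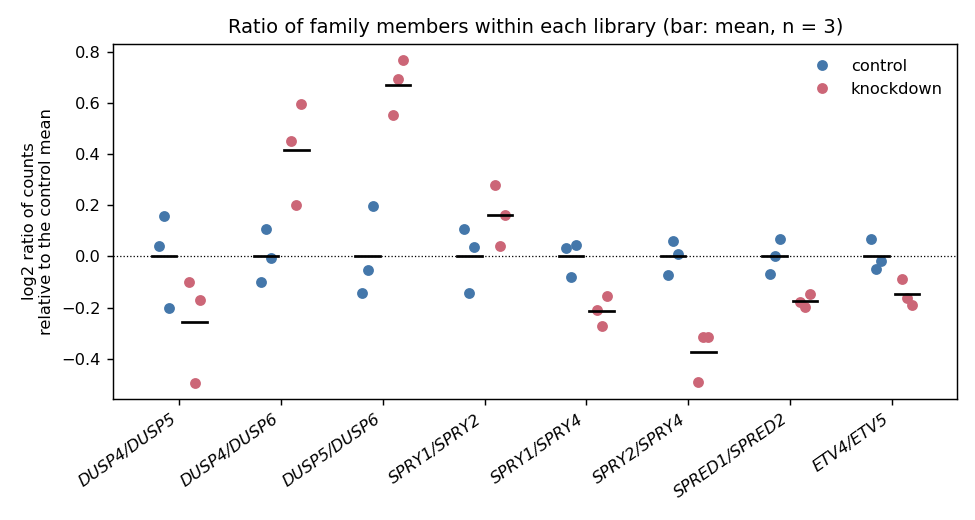
Log2 ratio of the counts of 2 family members in the same library, relative to the mean of the control libraries (vertical axis), for the 8 pairs; points are libraries and bars are means of 3. The ratios of DUSP5 and DUSP4 to DUSP6 lie above 0 in every knockdown library, and SPRY2/SPRY4, SPRY1/SPRY4, SPRED1/SPRED2 and ETV4/ETV5 lie below.

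ERK reaches these genes largely through ETS-family factors, which bind a GGAA core, so the bases just before the start site are shown for 3 members that rose and for SPRY2, which did not pass. The RefSeq promoter table (GRCh38.p14) held 6 of the 10 members; DUSP4, DUSP5, ETV4 and ETV5 had no entry, so 3 of the 6 members that rose were not searched. Each line gives the 120 bases before the annotated start, 5′ to 3′ on the gene's strand, with GGAA and its reverse complement TTCC in capitals. For SPRED2 and SPRY2, which have 2 and 3 entries, the first was taken. The windows are chr12:89352502-89352621 for DUSP6, chr5:142324248-142324367 for SPRY4, chr2:65432600-65432719 for SPRED2 and chr13:80341127-80341246 for SPRY2, all on the minus strand.
DUSP6: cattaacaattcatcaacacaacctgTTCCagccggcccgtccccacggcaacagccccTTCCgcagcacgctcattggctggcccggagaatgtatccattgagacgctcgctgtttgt
SPRY4: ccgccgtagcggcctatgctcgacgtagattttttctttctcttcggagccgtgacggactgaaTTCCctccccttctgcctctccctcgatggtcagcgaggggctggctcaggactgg
SPRED2: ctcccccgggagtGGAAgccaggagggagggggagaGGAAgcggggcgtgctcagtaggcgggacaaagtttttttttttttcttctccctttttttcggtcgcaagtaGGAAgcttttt
SPRY2: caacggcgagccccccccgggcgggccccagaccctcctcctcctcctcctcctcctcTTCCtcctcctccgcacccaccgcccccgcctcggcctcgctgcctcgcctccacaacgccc

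All 6 member windows held at least 1 GGAA core, as did 73.0% of the 35116 windows of the table, searched on both strands. DUSP6 had 2 cores, SPRED2 had 3, and SPRY4 and SPRY2 had 1 each. The longer ETS site CCGGAA, which contains the core, was in 0 of the 6 windows and in 9.77% of all. The CIC octamer was searched only as the exact letters TGAATGAA (in 0.464% of all windows), and variant forms of it were not searched. TGAATGAA and the cyclic AMP response element TGACGTCA (in 1.29%) were also in 0 of the 6. These are matches of letters in a short window, not measured binding.

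Other feedback genes and paralogues were taken as a list of 13, of which 12 could be tested; DUSP10 had 2 to 6 counts per library. In this list 6 rose and 1 fell, with a median log2 fold change of 0.14. Over all tested genes 19.3% rose and 19.2% fell. LRIG1, a membrane protein that promotes degradation of ERBB receptors, was at 36.7, 39.4 and 43.0 CPM in control and 62.4, 63.9 and 61.1 CPM in knockdown, a 1.61-fold rise (edgeR adjusted p = 1.12e-08). ERRFI1, an inhibitor of the EGF receptor, rose 1.28-fold (edgeR adjusted p = 1.17e-05), and DUSP16, a phosphatase of JNK and p38, rose 1.33-fold (edgeR adjusted p = 1.00e-05). IL17RD, also called SEF, an inhibitor of FGF receptor and ERK signalling, rose 1.152-fold (edgeR adjusted p = 0.00190). The rises of DUSP2 (edgeR adjusted p = 0.0128) and SPRED3 (0.0213) were smaller relative to their error. DUSP2 lost its call without control replicate 2 (0.0730) or knockdown replicate 1 (0.0518), and SPRED3 without control replicate 2 (0.0884) or knockdown replicate 3 (0.139). DUSP8, a phosphatase of JNK and p38, fell 4.34-fold on few reads: 15, 19 and 20 counts in control and 5, 6 and 5 in knockdown (edgeR adjusted p = 0.000115). DUSP1, SPRY3, ETV1, DUSP7 and DUSP9 did not pass; DUSP9 was at an edgeR adjusted p of 0.0503 with a log2 fold change of -0.29, and DUSP1 passed without control replicate 3 (edgeR adjusted p = 0.0259).

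A further list held 15 transcripts known to rise with ERK activity outside these families; AREG and EREG, with 0 to 7 counts per library, could not be tested. Of the remaining 13, 8 rose and 2 fell, with a median log2 fold change of 0.25. The shares over all tested genes were 19.3% higher and 19.2% lower. The transcript of cyclin D1, CCND1, was at 506, 521 and 515 CPM in control and 718, 714 and 713 CPM in knockdown, a 1.42-fold rise (edgeR adjusted p = 7.16e-11). CCND1 is also a Wnt target, as is MYC, which rose 1.202-fold (edgeR adjusted p = 1.84e-06). EGR1, an immediate early zinc finger factor, rose 1.36-fold (edgeR adjusted p = 9.57e-08), and the Eph receptor gene EPHA4 rose 1.46-fold (edgeR adjusted p = 2.38e-06). FOSL1, TGFA, IER3 and PLAUR also rose. The 2 that fell were PHLDA1, from 69.7 ± 1.35 to 62.9 ± 0.321 CPM (SD, n = 3 each; edgeR adjusted p = 0.0384), and the EGF receptor ligand gene HBEGF, from 5.21 ± 0.733 to 3.60 ± 0.439 CPM (SD, n = 3 each; edgeR adjusted p = 0.0247). The call of PHLDA1 was lost when any 1 of the 6 libraries was left out (edgeR adjusted p 0.0546 to 0.109). That of HBEGF was lost without control replicate 1 (0.0632), control replicate 3 (0.119), knockdown replicate 1 (0.0797) or knockdown replicate 3 (0.0655). EPHA2, EGR3 and FOS did not pass.

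**Figure D4:**
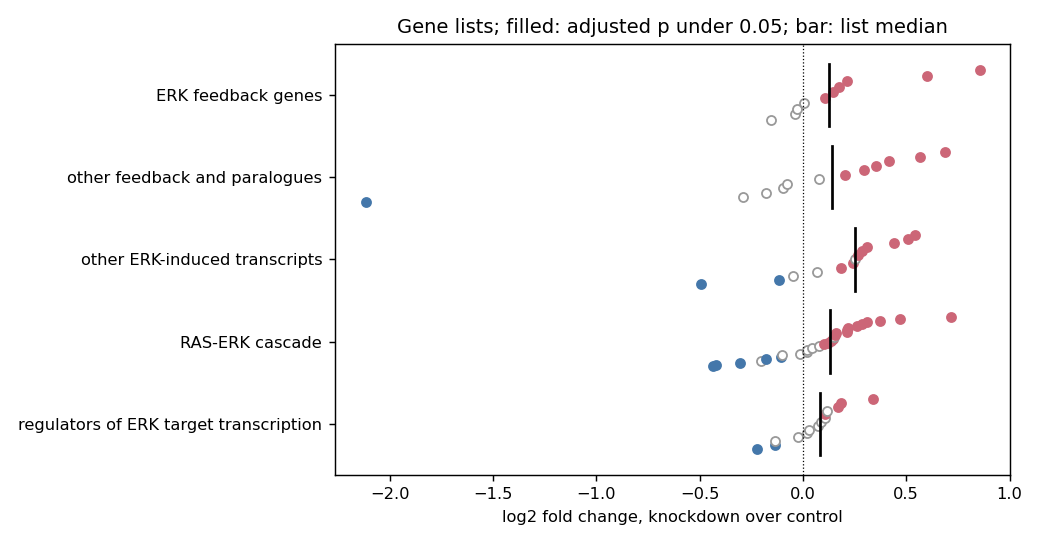
Log2 fold change of knockdown over control (horizontal axis) for the 10 members and the tested genes of 4 other lists; each point is a gene, filled red or blue where it was higher or lower at an adjusted p under 0.05, and black bars are list medians. The list medians lie between 0.08 and 0.25, each list has genes on both sides of 0, and DUSP8 is the point at -2.12.

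The cascade that feeds the members was covered by 28 genes, all tested, of which 15 rose and 5 fell (median log2 fold change 0.13). Of all tested genes, 19.3% rose and 19.2% fell. Without control replicate 2, 10 of the 28 rose and 3 fell, and without knockdown replicate 2, 11 rose and 3 fell. With library size alone, 10 rose and 6 fell. Genes of the same step could move in opposite directions. Among RAS genes, NRAS rose from 111 ± 1.21 to 132 ± 3.08 CPM (edgeR adjusted p = 5.50e-06), whereas HRAS fell from 46.9 ± 2.95 to 33.9 ± 0.474 CPM (edgeR adjusted p = 4.57e-06; SD, n = 3 each). At the ERK step, MAPK3, which encodes ERK1, was at 45.0, 42.4 and 41.6 CPM in control and 31.6, 31.2 and 31.5 CPM in knockdown (edgeR adjusted p = 5.25e-06). Every knockdown library was below every control library.

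At the RAF step, ARAF rose 1.10-fold (edgeR adjusted p = 0.0131; 0.0686 without control replicate 3) and BRAF 1.12-fold (edgeR adjusted p = 0.0418). BRAF lost its call without control replicate 1 (0.124), control replicate 2 (0.106), knockdown replicate 1 (0.113) or knockdown replicate 3 (0.0760). At the MEK step, MAP2K1 did not pass (edgeR adjusted p = 0.130) and MAP2K2 fell from 139 ± 2.30 to 126 ± 0.423 CPM (SD, n = 3 each; edgeR adjusted p = 0.0240). MAP2K2 lost its call without control replicate 1 (0.0657), control replicate 2 (0.109), knockdown replicate 1 (0.0626) or knockdown replicate 2 (0.0821). Higher in knockdown as well were the adaptor gene SHC1 (log2 fold change 0.26, edgeR adjusted p = 1.79e-06) and the ERK substrate kinase gene RPS6KA1 (log2 fold change 0.37, edgeR adjusted p = 1.46e-06). PTPN11, which encodes the phosphatase SHP2, fell (log2 fold change -0.18, edgeR adjusted p = 0.000334).

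Of 14 regulators of ERK target transcription, 4 rose, 2 fell and 8 did not pass (median log2 fold change 0.08). Among all tested genes 38.5% passed, 19.3% higher and 19.2% lower. The gene of the repressor CIC was at 111, 108 and 118 CPM in control and 129.8, 123 and 119 CPM in knockdown. The highest control and lowest knockdown libraries were close, without overlap. CIC rose 1.12-fold (edgeR adjusted p = 0.00324), and ATXN1, which encodes a partner of CIC, rose with a log2 fold change of 0.34 (edgeR adjusted p = 6.68e-05). ELK3 also rose, as did ETS1 (edgeR adjusted p = 0.0195), which lost its call without control replicate 1 (0.0826) or knockdown replicate 2 (0.0726) and with upper-quartile scaling (0.0542) or library size alone (0.0830), and also with the DESeq2 Wald test. SRF, which encodes the factor that works with ELK proteins at immediate early genes, fell (log2 fold change -0.22, edgeR adjusted p = 0.000683), as did the ETS repressor gene ETV3 (-0.13, edgeR adjusted p = 0.00817; 0.0615 without control replicate 3).

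The choice of scaling moved the members little. With library size alone in place of TMM factors, the share of all calls that were higher in knockdown was 40.8%, against 50.2%, the median of all genes moved from -0.00 to -0.03, and 15.9% of tested genes were higher. Under it 5 members rose and 0 fell, the difference being ETV5. Fewer transcripts per cell and fewer cells of a kind cannot be told apart in these bulk libraries. They measure transcripts, and neither ERK phosphorylation nor the proteins of these genes were measured.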

How the data were processed

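RNA-seq of total RNA was analysed for 6 SW403 libraries, 3 control and 3 IRS2 knockdown, grouped by their titles. The authors deposited whole-number read counts per gene symbol. They also deposited a normalized signal, in which the counts of each library are divided by 1 constant (0.847 to 1.25, computed here). The submitters' processing notes name STAR 2.6.1a, Salmon, DESeq2 and hg19; the tool that made the counts, the strand setting and the annotation are not given in the sources used here. Locations and transcript lengths came from GENCODE 44 lifted to GRCh37.

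Counts were tested with edgeR 4.0.16 in R 4.3.3 (TMM factors, filterByExpr, quasi-likelihood F-test, group as the only term), with Benjamini-Hochberg adjustment over the 13832 tested genes and a threshold of 0.05. Standard errors were taken from the F statistic, as |log2 fold change| over its root. CPM divides a count by the whole library's total. CPM per kilobase uses 1 canonical transcript per gene. The 3′ and 5′ ends used by these cells were not measured, so levels between genes are approximate. Alternatives were run with DESeq2 1.42.0, limma 3.58.1 on voom weights, limma on log2 of the deposited normalized signal plus a pseudocount of 1 (mean of at least 10), other scalings and filters, thinned counts (1 random draw), a length and GC correction and each library left out. The replicate numbers in the titles were also fitted as a block. The edgeR, DESeq2 and limma fits with group as the only term were tested on simulated counts; the block, thinned and length and GC fits were not.

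The members and the 4 other lists were chosen with earlier results of these data known, and the lists were written by hand. Named genes were all members, IRS2, genes of the RAS, RAF, MEK and ERK steps and CIC whatever their values, and, in each list, genes past the threshold, with values for at most 4 in each direction by smallest p. PHLDA1, DUSP8 and HBEGF fall under this rule. SPRY4-AS1, DGKG and DHX8 were named for their overlap with a member. DUSP2, SPRED3, KRT19, EPCAM, CDX2, COL1A1, COL1A2, COL3A1 and genes named as not passing were named after their values were seen. Some genes under this rule are not reported here.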

Additional observations from a re-analysis of the deposited data

How the results depend on the processing

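Over the 19 alternatives, 5 to 6 members rose. DUSP4, DUSP5, DUSP6 and SPRY4 kept their direction and their call in all 19, with log2 fold changes of 0.49 to 0.71, 0.79 to 0.93, 0.14 to 0.21 and 0.18 to 0.23. SPRED2 lost its call in 1 and ETV5 in 9. The number of members that fell was 0 except with thinned counts, where it was 1 (SPRY2). SPRY1, near 0, changed sign with upper-quartile factors (log2 fold change -0.018), library size alone (-0.028), a mean of at least 50 counts (-0.010) and thinned counts (-0.035), and ranged from -0.029 to 0.037 with a library left out. SPRED1 ranged from -0.084 to 0.028 with a library left out. The 8 family ratios kept their direction whichever library was left out.

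Same-numbered libraries deviated together with correlations of 0.04, -0.01 and -0.10, so the numbers were not taken to pair the samples. With the replicate block, 5 members rose and 0 fell, ETV5 had a log2 fold change of 0.11 and an adjusted p of 0.0515, and IRS2 was at -1.39.

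Counts of fallen genes in the other lists were small and moved. In the list of other feedback genes, 2 fell in place of 1 with upper-quartile factors, library size alone, limma voom or the length and GC correction, and 1 to 2 with a library left out. In the list of other ERK-induced transcripts, 0 fell in place of 2 with DESeq2's Wald test or a threshold of 0.01, 1 fell without the filter, with thinned counts, with limma on normalized values or with the replicate block, and 0 to 1 with a library left out. In the cascade list, 3 fell in place of 5 with DESeq2's Wald test, 3 fell and 9 rose at 0.01, and 3 to 5 fell with a library left out. The count of cascade genes that rose moved too. It was 10 in place of 15 with library size alone, and 12 with upper-quartile factors or DESeq2's Wald test. With a library left out it was 10 to 13. In the list of regulators, 1 to 2 fell with a library left out. Causes of these changes were not tested. Low counts limit SPRY1 among the members and DUSP8, SPRED3 and SPRY3 in the lists, and DUSP10, AREG and EREG could not be tested; the 3 libraries per group limit the ratios.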
